A study of Mus musculus with 14 samples.

Results

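Blebbistatin, a small molecule that blocks class II myosin motors, was set against its vehicle in a cultured brown fat cell line. These libraries were chosen by their labels and make up 6 of the 14 samples of the series; the other 8 are brown fat and white fat, 4 libraries each, from 22-week-old C57BL/6N mice on a high-fat diet for 14 weeks. Cells of the line BAT were induced to differentiate with insulin, T3, dexamethasone and IBMX, were moved to maintenance medium after 3 days, and at 7 days after induction received either 100 µM blebbistatin or DMSO (vehicle) for 24 h, with 3 libraries per group. Both groups therefore share the same line and the same differentiation, and DMSO alone is the control. The line is a culture model without the vessels, nerves and immune cells of brown fat, and the labels do not say whether it is a clone or whether the 3 replicates were separate cultures, so that the p-values measure the spread between these libraries, which may be technical.

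Nonmuscle myosin II slides actin filaments against each other and so puts tension on the actin network, on adhesions and on the nucleus. Monomeric actin holds the coactivators MRTF-A and MRTF-B (here Mkl1 and Mkl2) outside the nucleus; when actin polymerises they are released and, with serum response factor (Srf), switch on genes for actins, calponins, transgelin and other contractile proteins, often through a short element called the CArG box. Tension also governs YAP (Yap1) and TAZ (Wwtr1), coactivators of the TEAD factors that drive genes such as Ctgf, Cyr61 and Ankrd1. In adipocytes the contractile program is normally low once the cell has filled with fat, and in brown fat cells actomyosin tension has been tied to the thermogenic state.

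The libraries held 10920307 to 12978198 reads in genes with blebbistatin and 10685378 to 14176846 with vehicle. Levels are given as CPM, the share of a library's gene reads scaled up to a common total, with TMM factors to limit the weight of a few abundant genes. Vehicle 1 stood apart from the other vehicle libraries, with 3.45% of its gene reads in the ribosomal precursor Rn45s against 0.741% to 1.03% in the other 5 libraries, and blebbistatin 3 stood apart within its group. Across genes, log levels correlated at 0.9765 to 0.9936 within groups and at 0.9671 to 0.9858 between them. The cells carried the fat cell markers at high levels: Fabp4 averaged 4409 RPKM (reads scaled by exon length and library size) with blebbistatin and 4829 RPKM with vehicle. Brown fat genes were present at unequal levels. Cidea averaged 69.7 RPKM in blebbistatin libraries and 55.0 RPKM in vehicle libraries, Cox7a1 22.2 and 39.2 RPKM, and Ucp1 5.26 and 31.0 RPKM. Prdm16 averaged 3.62 and 4.75 RPKM, Ppargc1a 2.63 and 1.29 RPKM, and Dio2 0.33 and 0.526 RPKM. Of 34 thermogenic genes 6 had too few reads to be tested. Of 19 macrophage markers only 2 had enough reads to be tested, and of 14 endothelial markers only 1. The macrophage markers summed to 6.44 to 9.91 CPM with blebbistatin and 7.34 to 9.54 CPM with vehicle, with 9 of the 19 at 0 in all 6 libraries. The endothelial markers summed to 5.19 to 5.53 CPM with blebbistatin and 6.84 to 7.18 CPM with vehicle, with 5 of the 14 at 0 throughout.

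After 24 h of blebbistatin more genes were lower than higher. Of 12808 genes tested among 24421, 94 fell and 17 rose (limma, adjusted p under 0.05), which is 0.734% and 0.133% of the genes tested and 0.867% in both directions. Log2 fold changes are on the log2(CPM + 0.5) scale, which understates those of rare genes. On it the falls had a median of -1.46, with 78 of the 94 at least 2-fold and 25 at least 4-fold, and the rises a median of 0.92, with 7 of 17 at least 2-fold and 1 at least 4-fold. As plain ratios of mean CPM, 80 falls were at least 2-fold and 31 at least 4-fold, against 8 and 2 of the rises, with the keratin Krt7 as the deepest fall and Dlx3 as the largest rise. At an unadjusted p under 0.05, 927 genes were lower and 667 higher (7.24% and 5.21%), the background for the unadjusted counts given below by list. In bulk RNA, fewer cells of a type and less RNA per cell cannot be told apart. The median over all genes tested was a log2 fold change of 0.01. The groups did not overlap, with every blebbistatin library lower, in 1280 genes (9.99%), and with every blebbistatin library higher in 1232 genes (9.62%).

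The number of calls depended on single libraries, and no called gene changed sign in any fit. Without vehicle 1 the counts were 267 lower and 54 higher, without vehicle 2 they were 13 and 0, and without vehicle 3 they were 27 and 1. Without blebbistatin 1 they were 26 lower and 1 higher, without blebbistatin 2 they were 23 and 2, and without blebbistatin 3 they were 71 and 5. On the recovered reads edgeR called 97 lower and 18 higher (0.757% and 0.141%) and DESeq2 359 and 138 (2.8% and 1.08%). In the absence of vehicle 2 13 genes stayed called, among them Acta2, Krt7, Ankrd1, Tagln, Myl9, Col2a1, Ptx3, Ctgf, Plk2, Cdkn1c, Medag and Bcat1, and these 13 were called in each of the 6 fits that left out 1 library. The other 98 called genes lost their call without vehicle 2, with adjusted p between 0.069 and 0.306. Vehicle 1 was below both other vehicle libraries in 68 of the 94 fallen genes, by a median log2 difference of -0.39; over all genes tested it was below both in 5496 of 12808.

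**Figure D1:**
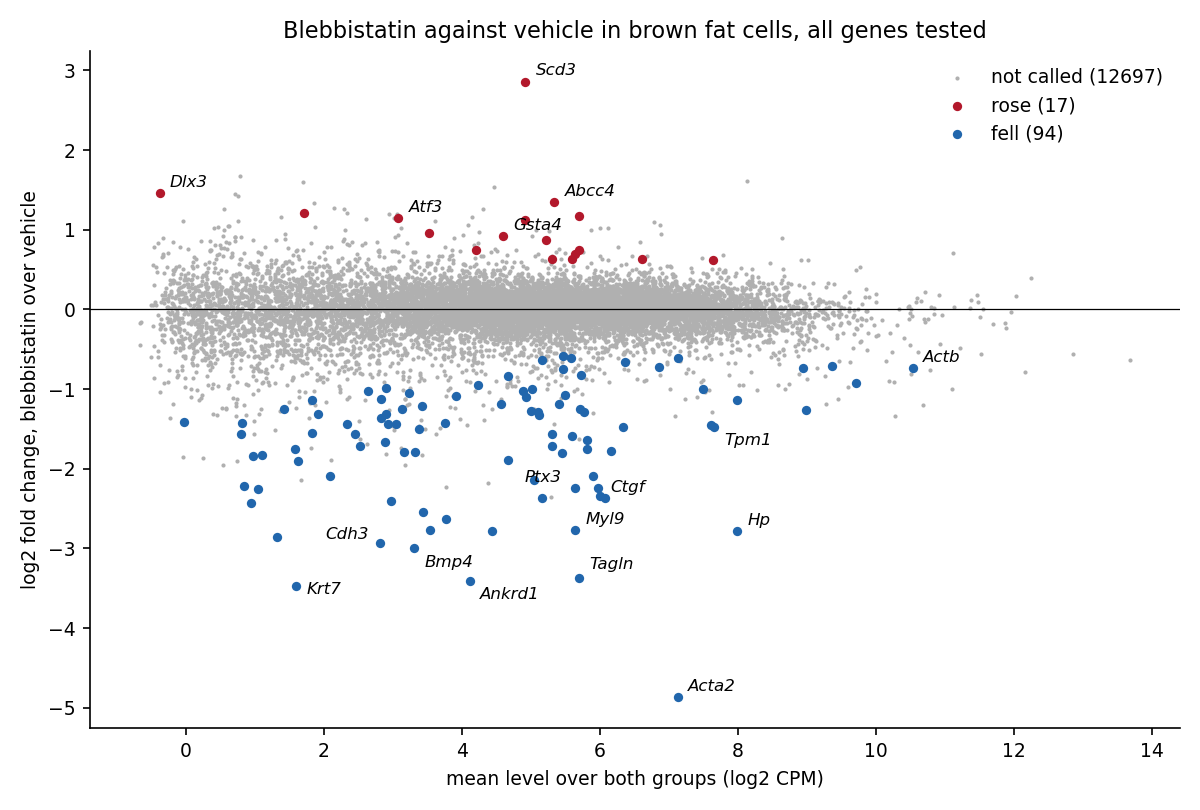
Log2 fold change (blebbistatin over vehicle) against the mean level over both groups (log2 CPM) for each of the 12808 genes tested, with the 17 genes that rose and the 94 that fell in colour. On this log2(CPM + 0.5) scale Acta2 lies lowest at -4.86, and among the rises Scd3 alone lies above 2.

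Contractile genes fell together, with Acta2 lowest of all genes on the log2(CPM + 0.5) scale. Of 26 tested genes of nonmuscle and smooth muscle actomyosin 10 fell and none rose (38.5%, beside 0.734% of all genes tested). All 26 had a log2 fold change below 0, with a median of -0.61. In 22 of the 26 every blebbistatin library was below every vehicle library, which held for 9.99% of all genes tested. With 1 library left out, the count of falls went from 3 (without vehicle 2) to 14 (without vehicle 1); it was 4 without blebbistatin 1, blebbistatin 2 or vehicle 3, and 9 without blebbistatin 3.

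Acta2, the actin of smooth muscle and myofibroblasts, had 7.68, 9.64 and 8.61 CPM with blebbistatin and 197, 304 and 311 CPM with vehicle (log2 -4.86, SE 0.19, adjusted p = 5.94e-05). The groups lay far apart, at a 29.1-fold difference, and vehicle 1 was the lowest of the vehicle libraries. On mm9 the gene lies at chr19:34314826-34329863 on the minus strand, Tagln at chr9:45737711-45744141 on the minus strand and Ctgf, described further on, at chr10:24315248-24318488 on the plus strand. Tagln, which encodes the actin-bundling protein transgelin, had 6.83, 9.12 and 10.0 CPM with blebbistatin against 67.7, 105 and 112 CPM with vehicle (log2 -3.36, SE 0.22, adjusted p = 0.00123). Again no blebbistatin library came near a vehicle library. The Tagln row overlaps Pcsk7 on the opposite strand, and the strand setting of the counting is not given in the sources used here, so a share of its reads may belong to that gene. Myl9, the regulatory light chain through which myosin II is switched on, had 10.6, 10.6 and 15 CPM with blebbistatin and 57.4, 91.2 and 115 CPM with vehicle (log2 -2.77, SE 0.25, adjusted p = 0.00447).

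Other thin filament genes fell with them. Actg2, the enteric smooth muscle actin, was rare, at 0.0776, 0.0747 and 0.463 CPM with blebbistatin and 2.46, 6.13 and 5.75 CPM with vehicle (log2 -2.86, SE 0.37, adjusted p = 0.0199). Lmod1, a nucleator of actin filaments in smooth muscle, fell as well (log2 -2.09, adjusted p = 0.0338), as did the calponins Cnn1 (log2 -1.76, adjusted p = 0.0201) and Cnn2 (log2 -1.45, adjusted p = 0.0323). The tropomyosin Tpm1, which lies along the actin filament, fell to 102, 102 and 111 CPM with blebbistatin, against 234, 296 and 359 CPM with vehicle (log2 -1.47, SE 0.16, adjusted p = 0.00775). Its relative Tpm4 fell less (log2 -0.74, adjusted p = 0.0459), and so did Actb, the cytoplasmic β-actin, with 1141, 1071 and 1112 CPM against 1717, 1820 and 2024 CPM (log2 -0.74, SE 0.12, adjusted p = 0.0455). Actg1, the cytoplasmic γ-actin, was at log2 -0.58 and Tpm2 at -0.99, and neither passed the test (adjusted p = 0.178 and 0.0506). Reads of the actins can be exchanged between these similar genes. Without vehicle 2, Actg2, Lmod1, Cnn1, Cnn2, Tpm1, Tpm4 and Actb lost their calls, with adjusted p between 0.0771 for Tpm1 and 0.266 for Actb.

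Of the motor subunits, the heavy chains Myh9 and Myh10 were not called, whereas the light chain Myl9 fell, as given above. Myh9, the main nonmuscle myosin II heavy chain of these cells and a target of blebbistatin, had 990, 902 and 1045 CPM with blebbistatin and 1282, 1401 and 1587 CPM with vehicle. The groups did not overlap, and the log2 fold change of -0.54 (SE 0.13) did not pass the test (adjusted p = 0.13). Myh10, the second nonmuscle heavy chain, was at log2 -0.28 (adjusted p = 0.34) and Mylk, the kinase that phosphorylates Myl9, at -0.63 (adjusted p = 0.165). Myh11 and Myh14, the smooth muscle and a further nonmuscle heavy chain, were too rare to be tested, with at most 0.463 and 0.598 CPM in a blebbistatin library and 1.32 and 0.471 CPM in a vehicle library. Per exon length Myh9 averaged 106 RPKM with blebbistatin and 151 RPKM with vehicle, against 22.5 and 26.8 RPKM for Myh10.

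Genes known as MRTF and SRF targets overlap this list, and 10 of 35 fell while none rose (28.6%, median log2 fold change -0.70). They are the same 10 that fell among the actomyosin genes. The count was 3 to 16 with 1 library left out, lowest without vehicle 2, highest without vehicle 1, and 4 without blebbistatin 1, blebbistatin 2 or vehicle 3. Egr1, Fos and Egr3, immediate early SRF targets named after their values were seen, stood on the other side of 0. Egr1 was at log2 0.46, Fos at 0.50 and Egr3 at 0.84, all short of the threshold (adjusted p = 0.572, 0.46 and 0.0727). For Fos and Egr3 every blebbistatin library was above every vehicle library, while Egr1 was at 0.13 without blebbistatin 3. Of the 31 immediate early genes tested, 14 were above 0 and 17 below, with a median of -0.06. The factors themselves were not called. Srf had 61.8, 56.6 and 71.6 CPM with blebbistatin and 71.7, 76.0 and 72.6 CPM with vehicle (log2 -0.22, SE 0.11, adjusted p = 0.499). Mkl1 and Mkl2 were at log2 -0.15 and 0.34 (adjusted p = 0.725 and 0.317). Myocd, the smooth muscle coactivator of SRF, fell from a low level, with 0.311, 0.224 and 0.37 CPM with blebbistatin against 1.7, 1.28 and 1.98 CPM with vehicle (log2 -1.42, SE 0.24, adjusted p = 0.0459, and 0.187 without vehicle 2).

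The promoters of Myl9 and Cnn2 hold a CArG box, and their sequences show where it lies in these genes. They come from RefSeq on GRCm38.p6, another build than the mm9 of the counts, and run 5′ to 3′ from 250 bases before to 50 after the annotated start; capitals mark the CArG box, a run of A and T bases between CC and GG, so that a match on one strand is also one on the other. The Myl9 window is chr2:156775214-156775513 on the plus strand, with its element 161 bases before the start, and the Cnn2 window is chr10:79988350-79988649 on the plus strand, with its element 56 bases before the start.
Myl9: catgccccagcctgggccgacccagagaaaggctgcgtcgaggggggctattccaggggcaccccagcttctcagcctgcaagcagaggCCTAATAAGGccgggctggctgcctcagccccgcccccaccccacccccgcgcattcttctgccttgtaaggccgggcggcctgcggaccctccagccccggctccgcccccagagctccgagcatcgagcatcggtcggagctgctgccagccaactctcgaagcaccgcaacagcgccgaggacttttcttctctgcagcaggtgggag
Cnn2: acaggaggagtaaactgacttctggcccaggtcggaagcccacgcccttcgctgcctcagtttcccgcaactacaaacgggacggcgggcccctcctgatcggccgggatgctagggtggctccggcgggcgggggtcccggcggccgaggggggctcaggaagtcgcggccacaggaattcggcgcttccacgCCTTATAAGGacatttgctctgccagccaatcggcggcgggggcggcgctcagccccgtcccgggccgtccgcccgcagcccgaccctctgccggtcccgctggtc

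Of the 94 fallen genes 56 were matched in this promoter table, with 74 promoters, and 8 of these promoters hold a CArG box (10.8%), in Myl9, Cnn2, Ldb3, Rnd3, Cbr2, Fam65b and Lurap1l. The share was 1.29% of 12901 promoters of all genes tested and 1.63% of all 32851 promoters in the table. Because too few of the fallen genes were matched, these shares are not compared. Acta2, Lmod1 and Tpm1, contractile genes that also fell, hold no exact match to the CArG box defined above in their windows. Forms of the box that depart from this definition were not counted, so these genes may still hold one. Each of the windows holds the letters GGAATG described further on.

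**Figure D2:**
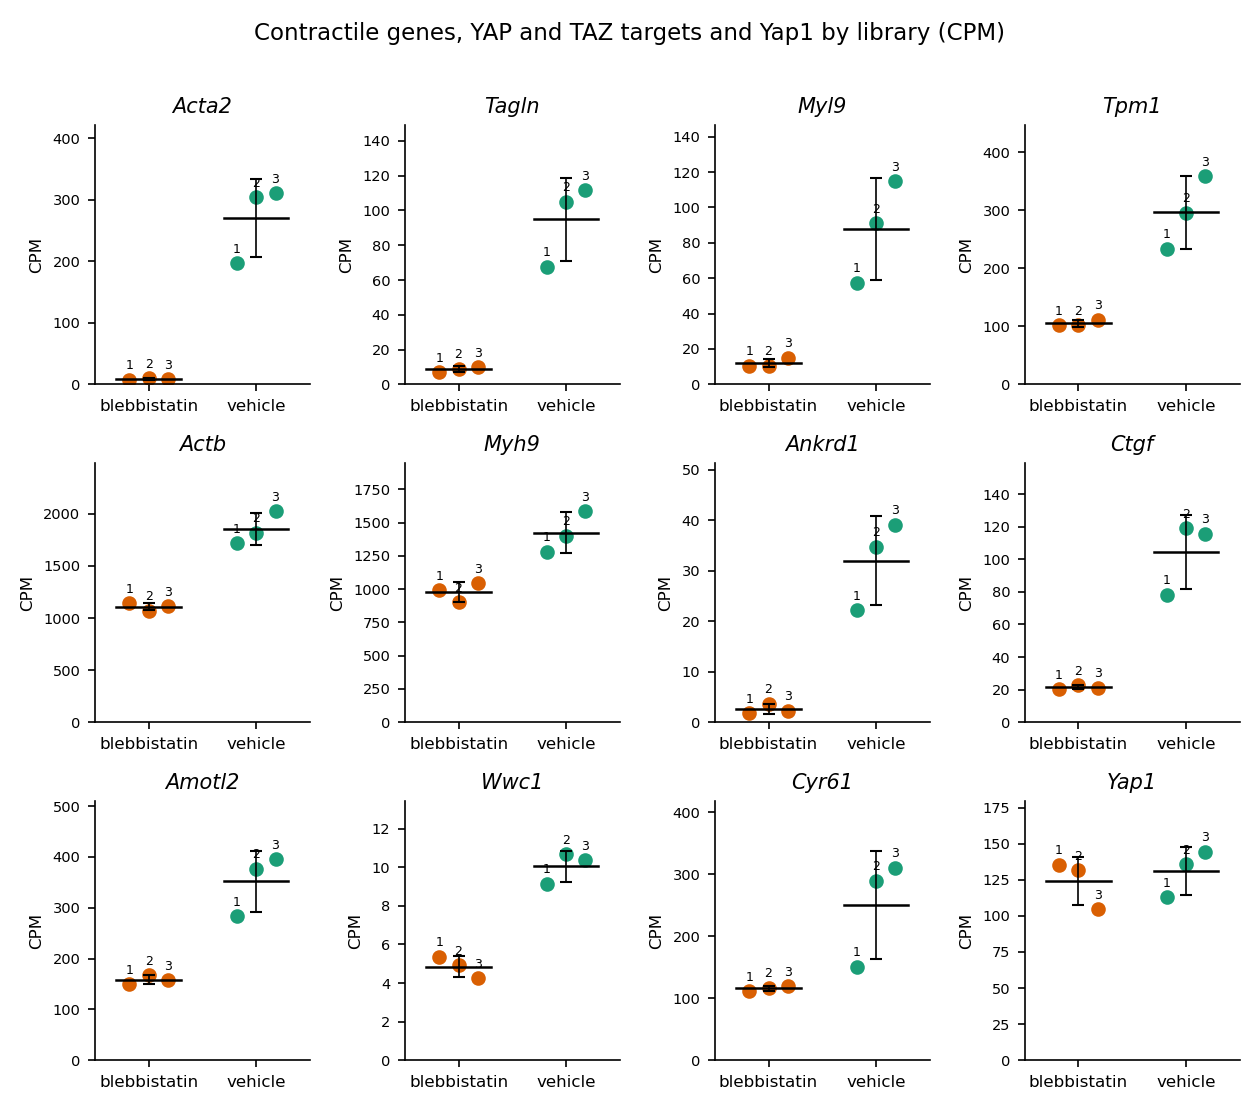
CPM in each library (points numbered by replicate, blebbistatin left of vehicle) with the mean (line) and SD (bar, n = 3) for contractile genes, YAP and TAZ targets and Yap1; every axis starts at 0. Acta2, Tagln, Myl9, Tpm1 and Ctgf show groups far apart, and the Yap1 groups overlap.

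YAP and TAZ targets were lower as well. Of 29 tested 5 fell and none rose (17.2%, median log2 fold change -0.34), with 11 falls without vehicle 1 and 3 without vehicle 2, vehicle 3, blebbistatin 1 or blebbistatin 2. Ankrd1, a cardiac ankyrin repeat protein and classic YAP target, had 1.79, 3.66 and 2.32 CPM with blebbistatin and 22.2, 34.8 and 39.1 CPM with vehicle (log2 -3.40, SE 0.28, adjusted p = 0.00287). Ctgf, the matricellular protein also called CCN2, had 20.3, 22.8 and 21.2 CPM with blebbistatin and 78.3, 119 and 116 CPM with vehicle (log2 -2.24, SE 0.17, adjusted p = 0.00233). In both genes the blebbistatin libraries lay far below the vehicle libraries.

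Amotl2, an angiomotin that holds YAP in the cytoplasm, fell to 149, 167 and 157 CPM, against 284, 377 and 395 CPM with vehicle (log2 -1.14, SE 0.14, adjusted p = 0.0178). Wwc1, the Hippo regulator KIBRA, fell least of those called (log2 -0.98, adjusted p = 0.0452). Cyr61, another CCN protein, had 112, 117 and 120 CPM with blebbistatin and 151, 289 and 311 CPM with vehicle. Its groups did not overlap, yet with vehicle 1 at less than the other vehicle libraries the log2 fold change of -1.04 (SE 0.25) missed the threshold (adjusted p = 0.126); without vehicle 1 it was -1.37 (adjusted p = 0.000921). Without vehicle 2, Amotl2 and Wwc1 lost their calls (adjusted p = 0.147 and 0.271). On the other side Gadd45a, a growth arrest gene in the same list, was at log2 1.06 (adjusted p = 0.0569).

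No gene listed as a Hippo and YAP pathway component was called, whereas Amotl2 and Wwc1, which also act on this pathway, are counted among the targets and fell. None of 18 tested genes of the Hippo and YAP pathway was called by limma or edgeR (2 lower and 0 higher at an unadjusted p under 0.05), DESeq2 called 1 lower, and the median log2 fold change was -0.07. Yap1 had 136, 132 and 105 CPM with blebbistatin and 113, 136 and 145 CPM with vehicle (log2 -0.08, SE 0.14, adjusted p = 0.88). Wwtr1, which encodes TAZ, had 150, 142 and 184 CPM against 144, 132 and 145 CPM (log2 0.17, SE 0.12, adjusted p = 0.663). Both pairs of groups overlapped. Vgll3, a TEAD cofactor, was lowest of the list at log2 -0.86 (adjusted p = 0.117); without vehicle 1 it was called (adjusted p = 0.0238).

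Ankrd1 and Amotl2 hold the letters GGAATG, the core that TEAD factors are known to bind, within the same promoter window. The Ankrd1 window is chr19:36119795-36120094 on the minus strand, with the core beginning 210 and 123 bases before the start; the Amotl2 window is chr9:102717554-102717853 on the plus strand, with the core on the opposite strand, read as CATTCC, 65 bases before the start. Capitals mark the core.
Ankrd1: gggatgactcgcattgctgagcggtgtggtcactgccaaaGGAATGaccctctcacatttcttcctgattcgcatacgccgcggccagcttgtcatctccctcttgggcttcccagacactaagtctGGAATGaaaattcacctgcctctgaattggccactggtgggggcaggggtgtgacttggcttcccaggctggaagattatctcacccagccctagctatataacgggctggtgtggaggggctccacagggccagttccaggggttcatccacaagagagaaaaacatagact
Amotl2: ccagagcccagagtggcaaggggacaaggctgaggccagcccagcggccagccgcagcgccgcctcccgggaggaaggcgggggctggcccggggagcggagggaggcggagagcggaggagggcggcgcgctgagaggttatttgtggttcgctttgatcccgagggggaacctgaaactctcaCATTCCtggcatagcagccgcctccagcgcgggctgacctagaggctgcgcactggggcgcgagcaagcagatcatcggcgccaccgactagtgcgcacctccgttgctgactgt
On either strand the core is present in 14.7% of all 32851 promoters of the table and in 12.3% of those of the genes tested, so that many windows hold it, 14 of the 74 of fallen genes among them (18.9%).

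Markers of smooth muscle and pericytes summed to 334 to 360 CPM with blebbistatin and 729 to 844 CPM with vehicle. Most of that difference came from Acta2, at a mean of 8.65 against 271 CPM, and Tagln, at 8.65 against 94.8 CPM. Of the markers 6 of 10 tested fell while none rose (60%, beside 0.734% of all genes tested, median log2 fold change -1.04). Acta2, Tagln, Lmod1 and Cnn1 are also counted among the actomyosin falls. The 6 are Acta2, Tagln, Lmod1, Cnn1, Myocd and Mcam, of which Mcam, an adhesion molecule of pericytes, fell least (log2 -0.66, adjusted p = 0.0481, and 0.306 without vehicle 2). The count was 5 without vehicle 1, 2 without blebbistatin 1, vehicle 2 or vehicle 3, and 3 without blebbistatin 2 or blebbistatin 3. Of the defining genes Myh11 had at most 0.463 CPM in a blebbistatin library and 1.32 CPM in a vehicle library and was not tested. Markers of fibroblasts and preadipocytes summed to 1604 to 1974 CPM with blebbistatin and 1677 to 2205 CPM with vehicle, and 2 of 17 fell. Has2, which makes hyaluronan, was at 4.97, 7.25 and 6.67 CPM with blebbistatin and 12.7, 15.7 and 17.1 CPM with vehicle (log2 -1.21, adjusted p = 0.0388). Ly6a, the stem cell antigen SCA-1, was at 4.35, 3.74 and 3.7 CPM against 8.97, 7.76 and 8.85 CPM (log2 -1.03, adjusted p = 0.0388). The ranges of the summed fibroblast markers overlap between the groups, and the part of either cell type in the falls was not tested. Has2 and Ly6a lost their calls without vehicle 2 (adjusted p = 0.235 and 0.201), and the list had 5 falls without vehicle 1 and 0 without any other library.

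Adhesion genes leaned down without a call. None of 35 focal adhesion genes was called by limma or edgeR, and 15 were lower and 2 higher at an unadjusted p under 0.05 (7.24% and 5.21% over all genes tested). DESeq2 called 9 lower and 1 higher and limma called 5 lower without vehicle 1 and 2 lower without blebbistatin 3. Their median log2 fold change was -0.27, with 26 of 35 below 0. Rnd3, which also appears among the promoters with a CArG box, fell to 19.2, 18.2 and 19.5 CPM with blebbistatin, against 32.0, 43.7 and 49.3 CPM with vehicle (log2 -1.09, adjusted p = 0.0338, and 0.22 without vehicle 2).

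**Figure D3:**
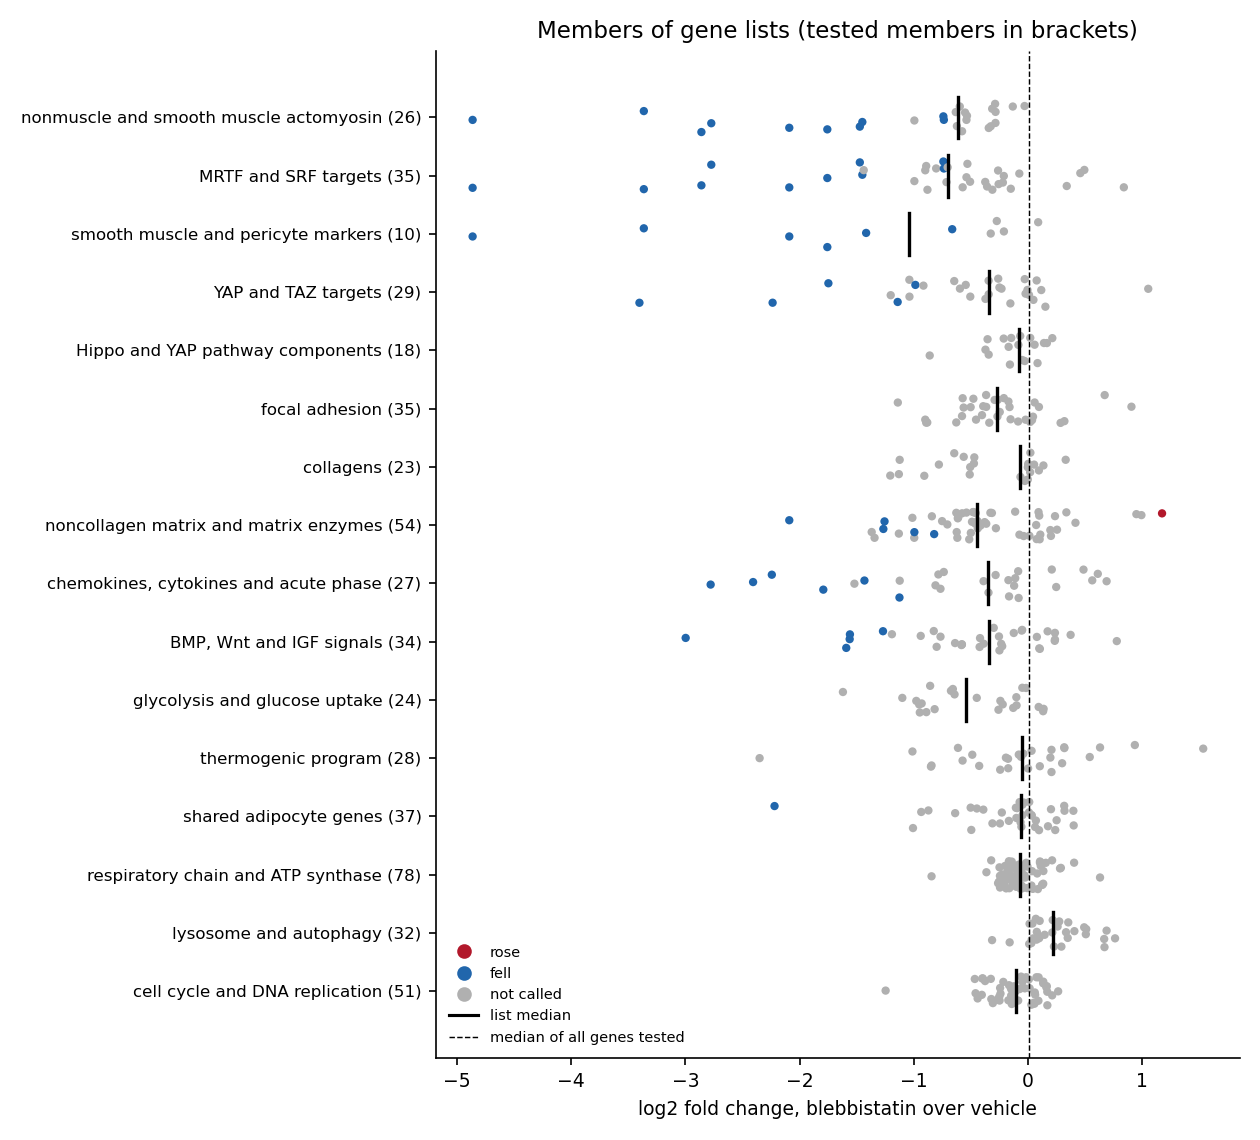
Log2 fold change (blebbistatin over vehicle) of each tested member of the gene lists shown, with the list median as a bar and the median of all genes tested as a dashed line. The contractile and MRTF lists have the most called members, the same 10 genes in each, while the respiratory chain has a median of -0.07.

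At an unadjusted p under 0.05 both matrix lists, noncollagen genes and collagens, held more lower than higher genes. With all libraries in, limma called genes in the noncollagen list only. Of 54 tested noncollagen matrix proteins and matrix enzymes 5 fell and 1 rose (9.26% and 1.85%, beside 0.734% and 0.133% of all genes tested). Their median log2 fold change was -0.45, and 26 were lower and 4 higher at an unadjusted p under 0.05. DESeq2 called 19 lower and 3 higher. Adamts5, an aggrecan-cutting protease, had 19.4, 25.4 and 21.3 CPM with blebbistatin and 67.3, 104 and 122 CPM with vehicle (log2 -2.09, SE 0.22, adjusted p = 0.00741). Thbs2, the matricellular thrombospondin, fell to 311, 306 and 270 CPM, against 538, 761 and 874 CPM with vehicle (log2 -1.27, SE 0.18, adjusted p = 0.027). The metalloproteinase inhibitors Timp3 (log2 -1.26, adjusted p = 0.0468) and Timp1 (log2 -0.82, adjusted p = 0.0459) and the crosslinking enzyme Loxl4 (log2 -0.99, adjusted p = 0.0455) complete the 5. Sparcl1, a relative of SPARC, rose, with 75.3, 54.7 and 86.5 CPM against 26.3, 31.7 and 36.1 CPM (log2 1.18, SE 0.19, adjusted p = 0.0422). In each of these genes the groups did not overlap. Without vehicle 2 none of the 6 was called, and without vehicle 1 the list had 19 falls and 1 rise. The list had 3 falls without blebbistatin 3 and 1 without blebbistatin 1, blebbistatin 2 or vehicle 3.

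None of 23 collagens on the list was called by limma, with 10 lower and 1 higher at an unadjusted p under 0.05; edgeR called 1 lower and DESeq2 6. Their median log2 fold change was -0.06, and 0.01 without vehicle 3. Col1a2, a chain of type I collagen, had 1006, 1123 and 818 CPM with blebbistatin and 1667, 2480 and 2740 CPM with vehicle, and missed the threshold narrowly (log2 -1.20, SE 0.21, adjusted p = 0.0506). Col1a1, its partner chain, had 3370, 3387 and 3256 CPM against 4224, 6418 and 6923 CPM (log2 -0.78, SE 0.20, adjusted p = 0.151). In both, vehicle 1 was the lowest of its group while still above the blebbistatin libraries. Without vehicle 1, 8 of the collagens fell and the median was -0.41. Col2a1, the cartilage collagen, which is not on the list, fell to 2.95, 3.29 and 2.04 CPM, against 13.2, 24.4 and 18.7 CPM with vehicle (log2 -2.54, SE 0.26, adjusted p = 0.00741).

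Several chemokines and acute phase genes fell. Of 27 tested, 6 fell and none rose (22.2%, median log2 fold change -0.34); the count was 9 without vehicle 1, 1 without vehicle 2 and 2 to 4 without any other library. Hp, which encodes the acute phase protein haptoglobin, had 56.4, 86.6 and 44.4 CPM with blebbistatin and 680, 366 and 287 CPM with vehicle (log2 -2.78, SE 0.34, adjusted p = 0.0175). Here vehicle 1 was the highest library. Ptx3, a pentraxin of innate immunity, had 16.9, 20.2 and 14.3 CPM against 77.5, 85.6 and 83.4 CPM (log2 -2.24, SE 0.14, adjusted p = 0.00123), with hardly any spread among the vehicle libraries. Ccl7 and Ccl2, neighbouring genes for chemokines that attract monocytes, fell by 2.41 and 1.79 on the log2 scale (adjusted p = 0.00775 and 0.0307). Cxcl5, a neutrophil attractant, fell from a low level (log2 -1.43, adjusted p = 0.0338), and the chemokine Ccl9 fell least (log2 -1.12, adjusted p = 0.0338). Il1rl1, the receptor of interleukin 33, had 3.65, 3.96 and 2.32 CPM against 13.6, 25.6 and 32.6 CPM (log2 -2.62, SE 0.33, adjusted p = 0.0178), and its ligand Il33 was at log2 -1.52 (adjusted p = 0.0612). Of these genes Ptx3 alone stayed called without vehicle 2; the adjusted p of the others there went from 0.0771 for Ccl7 and 0.0858 for Hp to 0.231 for Ccl9.

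In the list of BMP, Wnt and IGF signals, which holds ligands, antagonists, carriers and targets alike, 5 of 34 tested genes fell and none rose (14.7%, median log2 fold change -0.34). Bmp4, a ligand that commits precursors to the fat lineage, had 1.79, 1.49 and 1.48 CPM with blebbistatin and 7.65, 20.4 and 26.5 CPM with vehicle (log2 -3.00, SE 0.40, adjusted p = 0.021). Sfrp1, a secreted Wnt antagonist, had 24.99, 20.3 and 23.5 CPM against 44.7, 75.4 and 101.1 CPM (log2 -1.59, adjusted p = 0.0457). The others were Igfbp2, a carrier of insulin-like growth factors at under 4 CPM (log2 -1.56, adjusted p = 0.0419), the imprinted noncoding RNA H19 (log2 -1.56, adjusted p = 0.0468) and Wisp2, a CCN protein and Wnt target (log2 -1.27, adjusted p = 0.0452). All 5 lost their call without vehicle 2 (adjusted p between 0.15 for Bmp4 and 0.237 for Igfbp2), and the list had 10 falls and 1 rise without vehicle 1, and 2 falls without blebbistatin 3 and 0 without blebbistatin 1, blebbistatin 2 or vehicle 3. In the TGF-β and activin list 2 of 25 fell, among them Inhba, the activin A subunit (log2 -1.50, adjusted p = 0.0468, and 0.27 without vehicle 2), with a list median of -0.07.

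Several large falls belonged to no such group. Krt7, a simple epithelial keratin, had 3 reads in all with blebbistatin and 211 with vehicle, a ratio of vehicle over blebbistatin of 74 with a 95% counting interval of 25 to 362 (adjusted p = 0.00144); per library it had 0, 0.149 and 0.0926 CPM against 4.63, 6.05 and 7.25 CPM. Krt19, a second simple keratin, fell too (2.56, 2.99 and 4.26 CPM against 15.02, 9.47 and 9.89 CPM, log2 -1.66, adjusted p = 0.031). Cdh3 encodes P-cadherin (log2 -2.94, adjusted p = 0.0192), Coch the matrix protein cochlin (log2 -2.78, adjusted p = 0.00741) and Cemip a protein that breaks down hyaluronan (log2 -2.76, adjusted p = 0.0264). Adm, the vasodilator peptide adrenomedullin, had 10.6, 11.2 and 13.3 CPM against 37.2, 60.3 and 66.3 CPM (log2 -2.14, SE 0.22, adjusted p = 0.00741) and was the one fall among 22 hypoxia and angiogenic genes. Without vehicle 2 these lost their calls except Krt7, with adjusted p between 0.069 for Coch and Adm and 0.168 for Cemip.

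A kinase and an inhibitor of the cell cycle fell. Plk2, a polo-like kinase induced by growth factors and stress, had 19.4, 20.3 and 17.4 CPM with blebbistatin and 56.2, 66.8 and 82.6 CPM with vehicle (log2 -1.81, SE 0.15, adjusted p = 0.00318). Cdkn1c, the imprinted cyclin-dependent kinase inhibitor p57, had 15.99, 17.6 and 21.4 CPM against 59.1, 67.4 and 56.9 CPM (log2 -1.72, SE 0.14, adjusted p = 0.00287). Both stayed called whichever library was left out. Of 51 cell cycle and DNA replication genes none was called by limma or edgeR (8 lower and 1 higher at an unadjusted p under 0.05), DESeq2 called 2 lower, and the median log2 fold change was -0.11. Ccnd1, cyclin D1, was the lowest at log2 -1.25 (adjusted p = 0.0618), and it was called by limma without vehicle 1.

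Further falls, named after their values were seen, include genes of retinoid handling, matrix and signalling. Aldh1a1, which makes retinoic acid, had 8.77, 12.9 and 9.82 CPM with blebbistatin and 31.0, 44.9 and 45.5 CPM with vehicle (log2 -1.89, SE 0.20, adjusted p = 0.00775). Crabp2, which carries retinoic acid to the nucleus, was low in level and fell alongside (log2 -1.84, adjusted p = 0.0175). Npr3, the clearance receptor of natriuretic peptides, fell to 9.24, 10.2 and 12.5 CPM, against 32.5, 66.9 and 84.2 CPM with vehicle (log2 -2.37, adjusted p = 0.021). Ogn, the small proteoglycan osteoglycin, and Nov, the CCN protein CCN3, fell by 2.37 and 2.34 on the log2 scale (adjusted p = 0.0178 and 0.0468); the Ogn row overlaps Cenpp on the opposite strand. Of the 13 falls that held whichever library was left out, Col2a1, Medag and Bcat1 are in no list: Medag, a gene tied to adipogenesis, had 20.7, 19.2 and 19.5 CPM against 46.8, 47.7 and 52.7 CPM (log2 -1.29, adjusted p = 0.00287). Bcat1, the cytosolic branched-chain aminotransferase, had 26.9, 24.9 and 25.2 CPM against 57.4, 54.9 and 64.8 CPM (log2 -1.18, adjusted p = 0.00447). Aldh1a1, Crabp2, Npr3, Ogn and Nov lost their calls without vehicle 2, with adjusted p between 0.0771 for Aldh1a1 and 0.247 for Nov.

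The 17 rises were fewer and smaller, and 4 of them belong to a list. Scd3, a fatty acid desaturase, rose most on the log2(CPM + 0.5) scale, with 56.7, 28.8 and 73.3 CPM with blebbistatin and 14.2, 4.77 and 3.67 CPM with vehicle (log2 2.86, SE 0.49, adjusted p = 0.0468). Its libraries spread widely within both groups, and without vehicle 2 the adjusted p was 0.246. The close relatives Scd1 and Scd2, with which it can exchange reads, were at log2 -0.56 and 0.11 and did not pass (adjusted p = 0.626 and 0.917). Abcc4, an exporter of organic anions and cyclic nucleotides, had 77.0, 49.4 and 49.4 CPM against 24.1, 21.1 and 21.6 CPM (log2 1.35, SE 0.18, adjusted p = 0.0215). Prkaa2, a catalytic subunit of the energy sensor AMPK, had 41.1, 37.7 and 45.7 CPM against 23.3, 18.2 and 15.5 CPM (log2 1.12, SE 0.16, adjusted p = 0.0307).

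Atf3, a stress-induced factor, had 11.6, 11.4 and 12.4 CPM with blebbistatin and 4.72, 4.92 and 5.56 CPM with vehicle (log2 1.15, SE 0.15, adjusted p = 0.0192). Nr1d2, the clock repressor REV-ERBβ, had 63.3, 61.9 and 60.7 CPM against 38.1, 37.6 and 38.1 CPM (log2 0.70, SE 0.09, adjusted p = 0.0199). Ppara, the nuclear receptor for fatty acid oxidation, had 112, 123 and 119 CPM against 79.7, 80.2 and 68.8 CPM (log2 0.63, SE 0.10, adjusted p = 0.0441). Dlx3, a homeobox factor, had 1.4, 1.2 and 1.48 CPM against 0.189, 0.143 and 0.188 CPM (log2 1.46, adjusted p = 0.0343). At this low level the size depends on the scale: its log2 fold change was between 0.63 and 2.98 over the alternative fits, and 2.91 in the authors' deposited table. The ETS factor Etv1 rose at a low level (log2 1.22, adjusted p = 0.0455), and Mxd1, an antagonist of MYC, rose by 0.63 (adjusted p = 0.0468).

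Gsta4, a glutathione transferase that clears lipid aldehydes, had 31.3, 30.6 and 33.1 CPM with blebbistatin and 16.2, 17.6 and 15.6 CPM with vehicle (log2 0.92, SE 0.11, adjusted p = 0.0175), the one call among 32 glutathione and antioxidant genes. Of the same list Hmox1, heme oxygenase, was at log2 1.10 and Gclc, which starts glutathione synthesis, at 0.85 (adjusted p = 0.0941 and 0.0712), each with all blebbistatin libraries above all vehicle libraries. Fa2h, which hydroxylates fatty acids of sphingolipids, rose by 0.96 (adjusted p = 0.0413), Itih4, a plasma protease inhibitor-like protein, by 0.87 (adjusted p = 0.0468) and Spry4, a feedback inhibitor of receptor tyrosine kinases, by 0.74 (adjusted p = 0.0457). The list closes with N4bp2l1 (log2 0.75), the mitochondrial iron carrier Slc25a37 (0.63) and Tgoln1, a protein of the trans-Golgi network (0.62), whose row overlaps Tgoln2 on the same strand. All 17 rises lost their call without vehicle 2, and without vehicle 1 Mxd1 alone lost it (adjusted p = 0.0522).

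The brown fat program showed no call in limma. None of 28 tested thermogenic genes passed, with 4 higher and 3 lower at an unadjusted p under 0.05 (5.21% and 7.24% over all genes tested); edgeR called 0 and DESeq2 1 higher and 2 lower. The median log2 fold change was -0.05, at 0.01 without TMM or without vehicle 1 and 0.05 without blebbistatin 1. Ucp1, the uncoupling protein, had 8.15, 14.3 and 9.82 CPM with blebbistatin and 123, 52.6 and 26.1 CPM with vehicle. Every blebbistatin library was below every vehicle library, vehicle 1 was highest and vehicle 3 lowest of their group, and a log2 fold change of -2.35 (SE 0.49) did not pass (adjusted p = 0.0907). It was called in 4 of 17 alternative fits, among them the fits without vehicle 1 (log2 -1.78, adjusted p = 0.0321) and without vehicle 3 (log2 -2.89, adjusted p = 0.0393). The edgeR results that the authors deposited call Ucp1 lower and Elovl3 and Ppargc1a higher, as given further on.

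Other brown fat genes went to both sides of 0. Ppargc1a, the coactivator of mitochondrial biogenesis, had 17.4, 15.8 and 31.4 CPM with blebbistatin and 14.4, 10.5 and 7.63 CPM with vehicle (log2 0.94, SE 0.30, adjusted p = 0.246). Elovl3, an elongase of very long fatty acids typical of active brown fat, had 29.9, 35.0 and 31.3 CPM against 18.9, 10.8 and 5.93 CPM (log2 1.54, SE 0.35, adjusted p = 0.109, and called without vehicle 1). Neither pair of groups overlapped. Cidea, a lipid droplet protein of brown fat, was at log2 0.32 (adjusted p = 0.663), Dio2, which activates thyroid hormone, at -0.57 (adjusted p = 0.454), Cox7a1, a muscle and brown fat subunit of cytochrome c oxidase, at -0.84 (adjusted p = 0.433) and Prdm16, a regulator of brown fat identity, at -0.43 (adjusted p = 0.422), and in each the groups overlapped. The Prdm16 row overlaps 5930403L14Rik on the same strand.

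General adipocyte genes had a median near 0. Of 37 tested 1 fell, Lep, the hormone leptin, from a low level (0.466, 0.299 and 0.185 CPM with blebbistatin, 2.93, 3.7 and 3.2 CPM with vehicle, log2 -2.22, SE 0.23, adjusted p = 0.00741, and 0.0771 without vehicle 2). The list median was -0.06, and it was above 0 without TMM (0.01), without vehicle 1 (0.05) and without blebbistatin 1. Adipoq, which encodes adiponectin, had 627, 875 and 721 CPM with blebbistatin and 973, 942 and 821 CPM with vehicle (log2 -0.31, SE 0.15, adjusted p = 0.473). Pparg, the master regulator of fat cells, was at log2 -0.05 (SE 0.19, adjusted p = 0.954), Cebpa at -0.09 (SE 0.14), Fabp4 at -0.17 (SE 0.27) and Plin1, the lipid droplet coat protein, at 0.01 (SE 0.17), with overlapping groups, and the signs turned without TMM for Pparg and without single libraries for Pparg, Fabp4 and Plin1. Lpl, lipoprotein lipase, was higher in all blebbistatin libraries without passing the test (log2 0.40, adjusted p = 0.387).

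**Figure D4:**
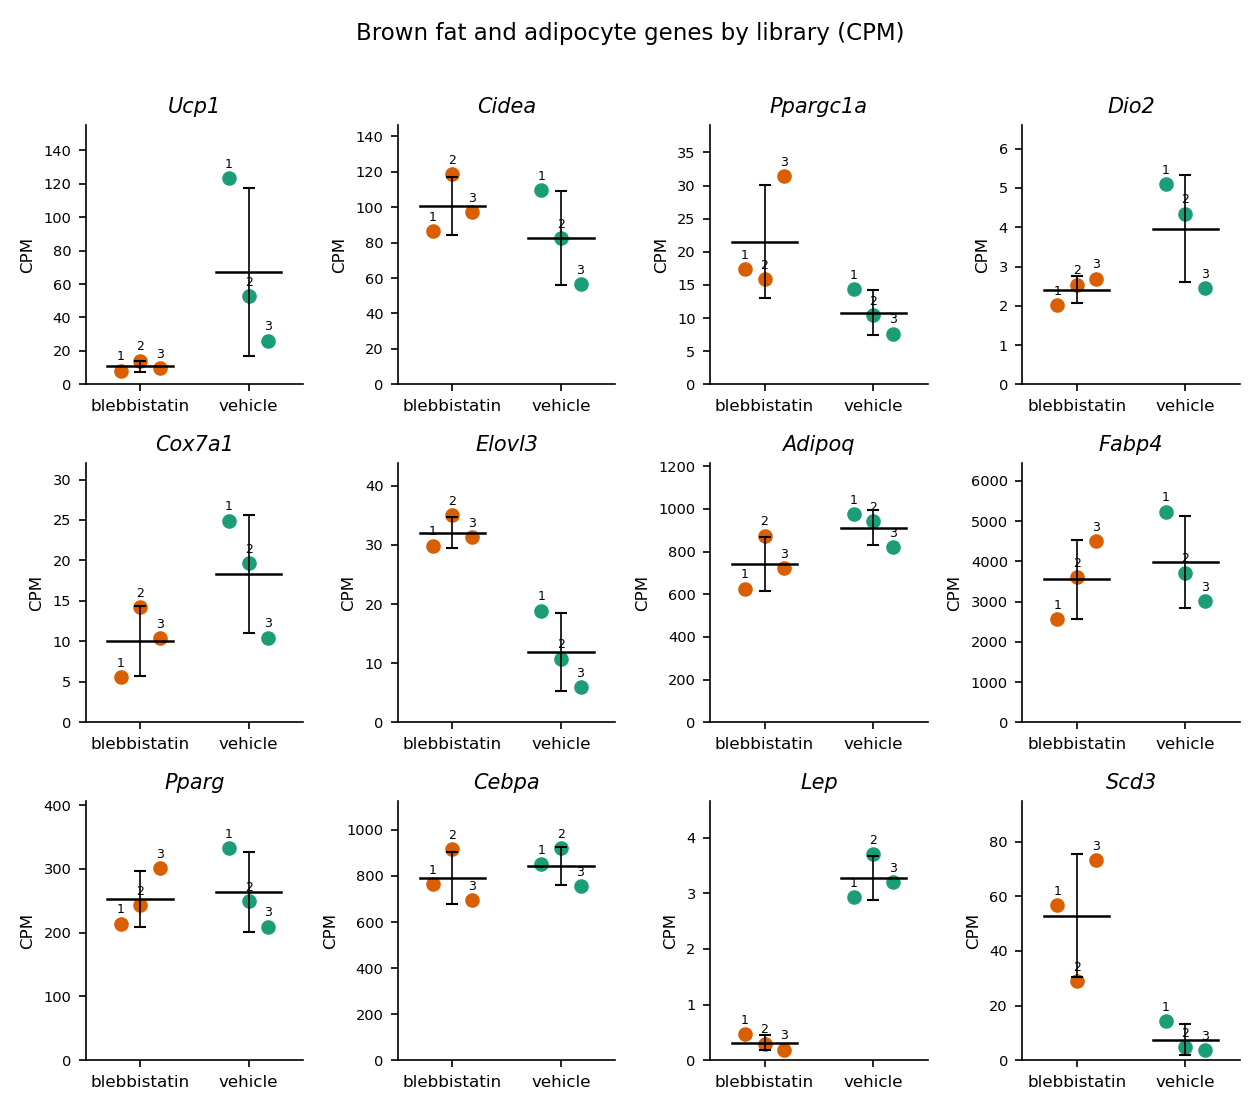
CPM in each library (points numbered by replicate, blebbistatin left of vehicle) with the mean (line) and SD (bar, n = 3) for brown fat and adipocyte genes; every axis starts at 0. Ucp1 spreads from 26.1 to 123 CPM in vehicle libraries and stays at or under 14.3 CPM with blebbistatin, while Pparg and Cebpa overlap.

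Metabolic pathways held few calls. Glycolysis genes leaned down without one: of 24 none was called by limma or edgeR, 10 were lower at an unadjusted p under 0.05, DESeq2 called 8 lower, limma with the replicate block and edgeR without vehicle 1 each called 1 lower, and the median log2 fold change was -0.54. They summed to 5202, 5351 and 5509 CPM with blebbistatin and 12040, 7409 and 5877 CPM with vehicle. All vehicle libraries were above all blebbistatin libraries, and vehicle 1 stood highest. Gapdh had 252, 253 and 257 CPM against 754, 444 and 350 CPM (log2 -0.95, adjusted p = 0.151) and Slc16a3, the lactate exporter, 34.3, 24.6 and 15.7 CPM against 120, 61.9 and 54.3 CPM (log2 -1.62, adjusted p = 0.0952). Ldha, which makes lactate, and Pgk1 were at log2 -0.98 and -1.10 (adjusted p = 0.153 and 0.158). Without vehicle 1 the median of the list was -0.09.

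Lysosome and autophagy genes leaned the other way. Of 32 tested 30 had a log2 fold change above 0, with a median of 0.22, and none was called by limma or edgeR (6 higher and 1 lower at an unadjusted p under 0.05; DESeq2 called 3 higher). Npc1, which exports cholesterol from lysosomes, came nearest, with 138, 109 and 130 CPM with blebbistatin and 70.8, 78.9 and 86.5 CPM with vehicle (log2 0.67, SE 0.12, adjusted p = 0.0616); its row overlaps 3110002H16Rik on the opposite strand. The list summed to 5859, 5247 and 5506 CPM against 4140, 4841 and 5157 CPM, with no overlap between groups, and without vehicle 1 the median was 0.10.

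**Figure D5:**
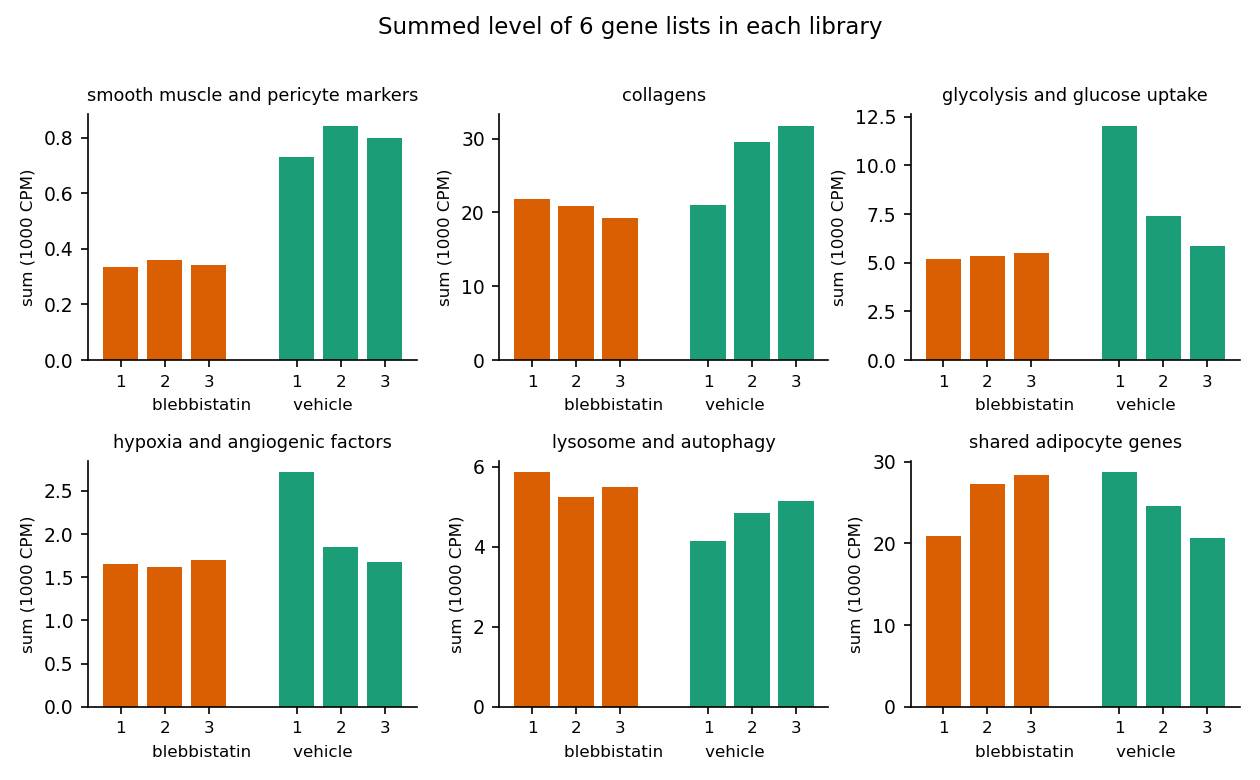
Summed level (in 1000 CPM, axes from 0) of 6 gene lists in each of the 3 blebbistatin libraries (left) and 3 vehicle libraries (right). Smooth muscle markers are below 360 CPM in each blebbistatin library and above 729 CPM in each vehicle library, whereas glycolysis and hypoxia genes peak in vehicle 1, and the adipocyte sums of the groups overlap.

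Most mitochondrial and housekeeping classes held no call by limma or edgeR. Limma and edgeR called none of 78 respiratory chain and ATP synthase genes (median log2 fold change -0.07, 2 higher and 0 lower at an unadjusted p under 0.05), none of 22 of the citrate cycle (median -0.04, 0 and 0), none of 29 of fatty acid oxidation (median -0.07, 4 and 3) and none of 29 of fatty acid and triglyceride synthesis (median 0.07, 3 and 2). DESeq2 called none, none, 2 higher, and 1 higher with 1 lower in these 4 lists, and without vehicle 1 limma and edgeR each called 1 higher and 1 lower in the last. Cytosolic ribosomal proteins had a median of -0.16 over 77 genes and the proteasome of -0.10 over 37, with no call by limma, edgeR or DESeq2 and no unadjusted p under 0.05 in either. In the unfolded protein and integrated stress responses 1 of 39 fell, Xbp1, a factor of the endoplasmic reticulum stress response (log2 -0.73, adjusted p = 0.0468), and it lost its call whichever library was left out, with 0.0517 without vehicle 1 and 0.287 without vehicle 2 as the lowest and highest adjusted p.

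The other lists held few calls. Klf2, a flow-responsive Krüppel-like factor, fell with Plk2 among 31 immediate early genes (log2 -1.42, adjusted p = 0.0307), and Atf3 rose there. Tubb2b, a β-tubulin, was the one fall among 20 tubulin and microtubule genes (log2 -1.72, adjusted p = 0.0422), and Cryab, the small heat shock protein αB-crystallin, the one among 18 heat shock genes (log2 -1.44, adjusted p = 0.0343). Limma and edgeR called none of 26 cholesterol genes (5 higher and 1 lower at an unadjusted p under 0.05), of 28 interferon response genes (6 and 1), of 39 adrenergic and cyclic AMP genes (2 and 7), of 70 mitochondrial ribosome genes (0 and 0), of 6 Ah receptor targets (2 and 1) and of 6 sarcomere genes (0 and 1). DESeq2 called 1 higher and 1 lower among the cholesterol genes and again among the Ah receptor targets, 2 higher in the interferon list, 4 lower in the adrenergic list and 0 in the mitochondrial ribosome and sarcomere lists. Without vehicle 1 limma and edgeR each called 3 lower in the adrenergic list, and without vehicle 3 limma called 1 higher in the interferon list. Of all 94 falls 47 are in a list, as are 4 of the 17 rises.

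The tissues of the same series, all from mice on a high-fat diet, show whether the called genes are higher in brown or in white fat under that diet. They share no library with the cells. Between brown and white fat of mice, 4 libraries each, limma called 7944 of 12754 genes (62.3%), with the tissue as the only term. Of the 94 genes that fell in the cells 17 were higher in brown fat (18.1%) and 40 higher in white fat (42.6%), 20 were not called and 17 not tested. Of the 17 that rose 8 were higher in brown fat and 3 in white fat. Over all genes tested in the cells 27.6% were higher in brown fat and 27.3% higher in white fat. Among genes at least 2-fold higher in brown fat, 14 of 2089 tested in the cells fell and 4 rose (0.67% and 0.191%), with a median log2 fold change of -0.02. Among genes at least 2-fold higher in white fat, 34 of 2008 fell and 2 rose (1.69% and 0.0996%), with a median of -0.0013. The difference between these shares was not tested. Ppara, Itih4 and Gsta4, which rose in the cells, were higher in brown than in white fat by 6.01, 4.55 and 4.55 on the log2 scale, and Lep and Krt19, which fell in the cells, were lower in brown than in white fat, at -2.60 and -3.56. Of the 10 contractile genes that fell in the cells 4 were higher in brown fat, 4 higher in white fat and 2 not called between the tissues. Tagln, Myl9, Lmod1 and Cnn1 were higher in brown fat, at 0.98, 1.66, 1.65 and 2.47, and Acta2, Cnn2, Actb and Tpm4 lower in brown than in white fat, at -0.49, -1.02, -1.10 and -0.86.

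The authors' deposited table of the same libraries, from edgeR, lists 352 genes lower and 102 higher at an adjusted p under 0.05, and contains all 94 falls and all 17 rises described above. It gives Acta2 a log2 fold change of -4.96 and Krt7 one of -6.03. Some genes not called by limma above are called there. Ucp1 is at log2 -2.64 (edgeR, adjusted p = 1.89e-07), Elovl3 at 1.44 (adjusted p = 0.000518) and Ppargc1a at 0.99 (adjusted p = 0.0475). Cyr61 is at -1.11 (adjusted p = 0.00018) and Myh9 at -0.54 (adjusted p = 0.0291). Cidea, Dio2, Cox7a1 and Prdm16 are not called there either.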

How the data were processed

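RNA was extracted with TRIzol, made into libraries with a stranded mRNA kit and sequenced on a HiSeq2500, per the labels' protocols. The submitters' processing notes name STAR, HOMER, edgeR and build mm9; no versions and no strand setting for the counting were found in the labels. The authors deposited a signal per gene, read counts scaled to a common total, from which whole reads were recovered (100% of values of up to 1000 reads within 0.1 of a whole read), and RPKM. The authors also deposited log2 fold changes and edgeR p-values. The RPKM header names 3 further libraries, not analysed here.

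From the scaled counts, limma 3.58.1 (R 4.3.3; mean-variance trend, robust variances, group as the only term) tested log2(CPM + 0.5) with TMM factors, for genes passing filterByExpr (minimum count 10, total 15), with Benjamini-Hochberg adjustment over all of them at 0.05. A log2 fold change on this scale understates that of rare genes. Alternatives were edgeR 4.0.16 (quasi-likelihood) and DESeq2 1.42.0 on recovered reads, RPKM, other filters, pseudocounts and scaling, a replicate block and leaving out each library. The test was checked on simulated data. Counting intervals cover counting error only.

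The comparison and its 41 gene lists were chosen with earlier results of these data known, so list counts are descriptions without a test. Genes named are the 12 largest rises and the 12 largest falls among called genes with at least 5 CPM in the higher group and no overlap, up to 4 called genes per list, and 25 genes named whatever their result. 3110002H16Rik, 5930403L14Rik, Actb, Actg1, Aldh1a1, Bcat1, Cbr2, Ccl9, Ccnd1, Cenpp, Cnn2, Col1a1, Col1a2, Crabp2, Cxcl5, Dlx3, Egr1, Egr3, Elovl3, Etv1, Fam65b, Fos, Gadd45a, Gapdh, Gclc, Hmox1, Il33, Ldb3, Ldha, Loxl4, Lpl, Lurap1l, Mcam, Medag, Mkl1, Mkl2, Mxd1, Myocd, Nov, Npc1, Npr3, Ogn, Pcsk7, Pgk1, Plin1, Scd1, Scd2, Slc16a3, Slc25a37, Tgoln1, Tgoln2, Timp1, Tpm1, Tpm2, Tpm4, Vgll3, Wisp2 and Wwc1 were named after their values were seen. Some results, among them those of a gene and of a gene list, are not reported here.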

Additional observations from a re-analysis of the deposited data

How the results depend on the processing

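The direction of all 111 calls was the same in every alternative; the counts moved. Against 94 lower and 17 higher, limma gave 56 lower without TMM, 26 lower and 4 higher on log2(RPKM + 0.1), and 10 higher with a minimum count of 50, and DESeq2 gave 359 lower and 138 higher, so that 27.8% of its calls were higher against 15.3% in the fit used. EdgeR without vehicle 1, chosen after seeing the data, gave 277 and 51. With 1 library left out the counts went from 13 to 267 lower and from 0 to 54 higher. Deviations from the group mean correlated at -0.49, 0.318 and -0.258 between same-numbered libraries. With 3 libraries per group such values cannot show whether the replicates were paired. With the replicate block 30 genes were lower and 0 higher.

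Among genes higher in brown fat 4 rose and 14 fell. The rises were 1 on RPKM, 30 by DESeq2, 2 with no filter, 0 with the replicate block, 18 by edgeR without vehicle 1 and 0 to 19 with 1 library left out. The falls were 6 without TMM, 2 on RPKM, 52 by DESeq2, 1 with the block, 30 by edgeR without vehicle 1, 4 at a tissue log2 fold change of at least 2 (chosen after seeing the data) and 1 to 27 with 1 library left out. Among genes higher in white fat 2 rose and 34 fell. The rises were 1 on RPKM, 40 by DESeq2, 1 with no filter, 0 with the block, 11 by edgeR without vehicle 1, 1 at the stricter tissue fold and 0 to 12 with 1 library left out. The falls were 20 without TMM, 9 on RPKM, 130 by DESeq2, 11 with the block, 106 by edgeR without vehicle 1, 14 at the stricter tissue fold and 4 to 104 with 1 library left out. The cause of these moves was not tested.

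Uncalled genes near 0 turned sign. Pparg was at 0.016 without TMM and 0.14 by edgeR without vehicle 1, and -0.20 to 0.13 with 1 library left out. Fabp4 was at 0.081 by edgeR without vehicle 1 and -0.37 to 0.050, and Rn45s at 0.095 by edgeR without vehicle 1 and -1.02 to 0.079, with 1 library left out. In the same fits Plin1 was at -0.13 to 0.11, Yap1 at -0.18 to 0.024 and Scd2 at -0.12 to 0.40.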
